A study of Mus musculus with 8 samples.

Results

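High-fat feeding was compared with control chow after 12 weeks in stromal cells grown from mouse subcutaneous fat. The comparison rests on 4 of the 8 arrays of the study: 2 labelled young/high-fat diet and 2 labelled young/control. The mice were C57BL/6 males that were 6 weeks old when feeding began, and the high-fat food held 60% fat. The other 4 arrays come from the same diets fed for 24 weeks, and the labels call those mice old and the 12-week mice young. All features that passed the filter on dim probes were compared, which came to 29585, of which 16732 carried a gene symbol and 12853 did not.

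The cells of all groups came from abdominal subcutaneous fat digested with collagenase D. Red cells were lysed, adherent cells were kept and passaged 2 or 3 times, and the labels call the product Ad-MSCs, for mesenchymal stem cells derived from adipose tissue. The labels name no engineered allele and no drug for any group. Adherence to plastic was the only selection the labels describe, so attached cells of other lineages could remain. The labels do not say whether the 2 arrays of a group hold separate mice or separate cultures, so every p-value below measures the spread between arrays, which may be technical. All arrays sat on 1 slide in a single scan. At 12 weeks the chow arrays lay in slide columns 1 and 2, beside columns 3 and 4 with the high-fat samples, so column and diet cannot be told apart. The 12-week arrays filled slide row 1 and the 24-week arrays row 2, so row and feeding time cannot be told apart either.

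Adipose stromal cells are fibroblast-like cells of the fat depot, and some of them are progenitors that can mature into adipocytes. The master regulator of that step is the nuclear receptor PPARγ, which with C/EBPα turns on genes for lipid storage, fatty acid synthesis, insulin-driven glucose uptake and secreted adipokines. Fat also houses macrophages, which engulf dying cells, take up lipid and multiply in obese animals. Macrophages attach to plastic too and can persist in early passages of stromal cultures.

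Values are given as scaled intensities, that is, an array's processed probe signal divided by the 75th percentile of that array and multiplied by 1381, the geometric mean of those percentiles. Log2 changes are high-fat minus chow at 12 weeks with their standard error, n = 2 arrays per group. A gene is said to have risen or fallen only when its adjusted p in limma with Benjamini-Hochberg adjustment over all 29585 features was under 0.05. Where a probe was not well above background on either array of a group, the change is given as a lower bound ("at least"). Such a bound holds only for the scaling and background subtraction used here. Intensities of different probes are not comparable, so only the same gene is compared between arrays. Where a pair of values stands against another, the chow pair comes first. The number of arrays limits the precision of every value, and in bulk RNA fewer cells of a type and less RNA per cell cannot be told apart.

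Replicates lay close together. Across features, which are not independent, the 2 chow arrays correlated at 0.997 and the 2 high-fat arrays at 0.998, against 0.976 to 0.977 between the diets at 12 weeks. The high-fat arrays at 12 weeks correlated at 0.980 with the 24-week chow arrays, more closely than the 12-week chow arrays did (0.967 to 0.969). Between 65.1% and 67.2% of probes were well above background on the 12-week arrays. The positive markers of the stromal label that were tested (Pdgfra, Pdgfrb, Thy1, Eng, Nt5e, Cd44, Itgb1, Alcam and Vcam1) were well above background on all 8 arrays. The defining negatives were not absent. Ptprc, which encodes the leukocyte antigen CD45, gave 551 and 467 on the chow arrays and 6867 and 7031 on the high-fat arrays, a rise of 3.78 ± 0.09 (adjusted p = 3.45e-06). Pecam1, an endothelial adhesion molecule, gave 339.9 and 367 on chow and 351 and 359 on high-fat diet and was not called. The signal of CD45 therefore moved with the diet while that of the endothelial marker had no call, and the results below are given beside the leukocyte genes.

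Of the 29585 features, 9263 (31.3%) differed between the diets in limma, 4065 (13.7%) upward and 5198 (17.6%) downward with high-fat feeding. Counts of risen and fallen genes in the lists below stand against these shares, and a count near its share is no result about the list. The median change of the called features was 0.54 in absolute log2 value, and the median over all features was −0.03. At least 2-fold changes were called for 1189 features upward (4.02%) and 945 downward (3.19%). At larger sizes the counts upward were 594 at 4-fold, 289 at 8-fold and 50 at 16-fold, and downward 274, 94 and 33. These sizes are fitted values, and for probes not well above background on a diet they are not measured folds. The arrays of the diets did not overlap for 20323 features (68.7%), 30.1% of all features higher and 38.6% lower, so absence of overlap by itself is common here. Leaving out HF12 replicate 1, an array of the high-fat group, left 5440 calls, leaving out HF12 replicate 2 left 5825, and leaving out C12 replicate 1, a chow array, left 6077.

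**Figure D1:**
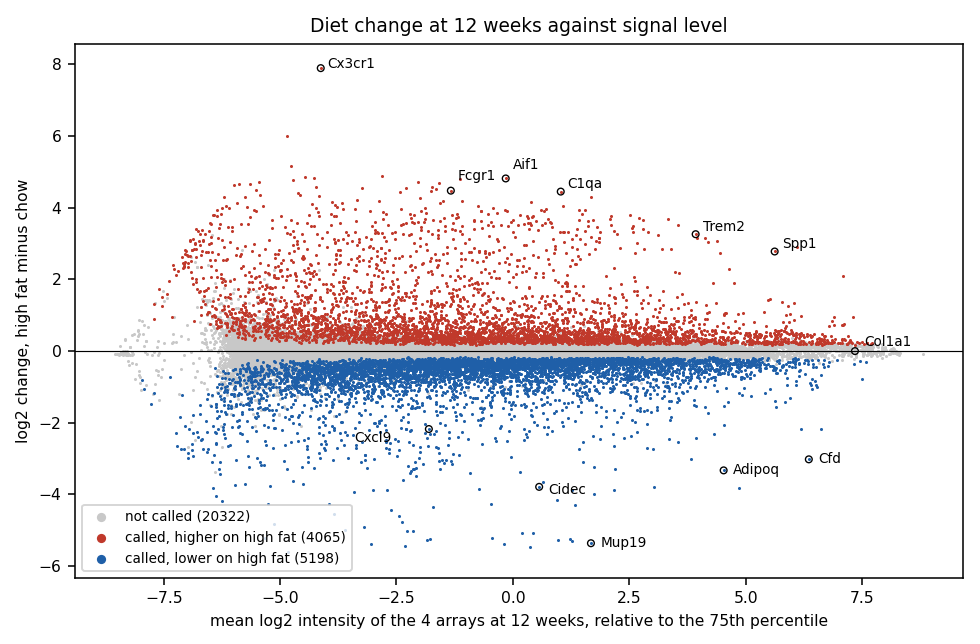
Log2 change on the high-fat diet at 12 weeks (vertical axis) against the mean log2 level relative to each array's 75th percentile (horizontal axis), with 1 point per feature. Grey points are features without a call, coloured points the 4065 higher and 5198 lower ones, and the lowest points include the major urinary protein genes near −5.

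The highest changes were led by Cx3cr1, the fractalkine receptor of monocytes and macrophages, which gave 5.39 and 4.90 on the chow arrays and 1175 and 1261 on the high-fat arrays. Its probe was not well above background on either chow array, so it was at least 64.2-fold higher on the high-fat diet (adjusted p = 1.69e-06 in limma). The other genes among the 20 with the highest changes included the Src-family kinase Fgr (at least 16.1-fold), the guanine nucleotide exchange factor Fgd2 (at least 20.2-fold), Ms4a6b (at least 19.5-fold), Aif1, Fcrls, Ncf1, Fcgr1 and the plasma protein gene Ambp. Downward the 20 with the lowest changes held 11 major urinary protein genes, the cytochrome Cyp2e1 (−5.02 ± 0.08), the carboxylesterases Ces1d (−4.91 ± 0.10) and Ces1f (−4.55 ± 0.16), the amino acid transporter Slc7a10 (−4.44 ± 0.10), the activin receptor Acvr1c (−4.35 ± 0.14), the protease Adamts19 and the adipokine Retn.

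Genes that mark macrophages rose nearly together on the high-fat diet. Of 26 tested genes of the pan-macrophage and myeloid list, 24 rose (13.7% of all features did), 1 fell and 1 had no call, and the median change was 3.35 against −0.03 over all features. The summed scaled intensity of the list was 107016 and 106996 on the chow arrays and 554050 and 549964 on the high-fat arrays. On chow the tested genes of the list were well above background on both arrays other than Ccr2 (neither array) and Spi1 (1 of 2 arrays), so the chow cultures were not free of this signal.

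Aif1, a cytoskeletal protein of macrophages also called Iba1, gave 231 and 238 on chow and 6533 and 6632 on high-fat diet, a change of 4.81 ± 0.06. Adgre1, which encodes F4/80, gave 1786 and 1533 against 20270 and 21936, a change of 3.67 ± 0.09. Both high-fat arrays lay more than 10-fold above both chow arrays for these genes. Csf1r, the receptor for the growth factor that keeps macrophages alive, gave 19684 and 19079 on chow and 70929 and 72071 on high-fat diet, a smaller rise of 1.88 ± 0.05 from a strong chow signal. Csf1, which encodes that growth factor, fell by 0.46 on the log2 scale (SE 0.05).

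Genes for transcription factors of the lineage rose as well. Irf8, which directs monocyte development, gave 423 and 465 on chow and 5099.7 and 5041 on high-fat diet (3.51 ± 0.07). Spi1, which encodes PU.1, the factor that sets the myeloid programme, gave 17.6 and 42.0 against 422 and 319.9, a change of 3.76 ± 0.42, with chow arrays that differed from each other more than those of most genes. The member that fell was Cebpa (−0.69 ± 0.11), which both myeloid cells and adipocytes express. The member without a call was Itgam, encoding CD11b, with 21469 and 22655 on chow and 25120.3 and 24604 on high-fat diet. The groups did not overlap for Itgam either, but the difference was small beside the spread.

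Receptors and signalling proteins by which phagocytes recognise antibody-coated particles moved in 1 direction. All 20 tested genes of the Fc receptor and immunoreceptor list rose, each at least 2-fold, with a median of 3.21. Fcgr1, the high-affinity receptor for IgG, gave 115 and 118 on chow and 2606 and 2563 on high-fat diet, a change of 4.47 ± 0.06. Fcgr4 changed by 3.64 ± 0.06, Fcgr3 by 3.50 ± 0.06 and the inhibitory receptor Fcgr2b by 3.38 ± 0.10. Their adaptor chains Fcer1g (3.51 ± 0.10) and Tyrobp (3.05 ± 0.07) rose by like amounts. The kinases downstream rose too: Syk by 2.81 (SE 0.06) and Btk by 3.63 (SE 0.09) on the log2 scale. So did Ptpn6 (3.90 ± 0.09) and Inpp5d (3.18 ± 0.07), phosphatases that restrain the same receptors, and the paired inhibitory receptor Pirb (3.24 ± 0.10).

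The subunits of the phagocyte NADPH oxidase, which makes superoxide in the phagosome, rose while oxidases of other cells fell. Ncf1, a cytosolic organiser subunit, gave 85.9 and 96.4 on chow and 2358 and 2329 on high-fat diet (4.69 ± 0.09). The membrane subunits changed by 2.63 ± 0.13 for Cybb and 1.44 ± 0.08 for Cyba, and Ncf4 and the GTPase Rac2 by 3.47 ± 0.05 and 3.60 ± 0.08. The fibroblast oxidase Nox4 fell (−0.57 ± 0.06), as did the epithelial Duox1 (−0.89 ± 0.08) and its maturation factor Duoxa1 (−1.01 ± 0.12). That made 6 higher and 3 lower of 10 tested genes.

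Complement genes went both ways. C1qa, C1qb and C1qc encode the chains of C1q, which macrophages secrete, and lie next to each other in the genome. C1qa gave 565 and 646 on chow and 13427 and 12886 on high-fat diet (4.44 ± 0.09), and C1qb and C1qc changed by 4.28 ± 0.06 and 3.79 ± 0.07. The receptors C3ar1 and C5ar1 rose by 3.66 (SE 0.11) and 3.83 (SE 0.14) on the log2 scale, and properdin, Cfp, changed by 3.27 ± 0.06. In contrast C3, the central component, gave 218833 and 210449.8 on chow and 46956 and 47814 on high-fat diet, a change of −2.18 ± 0.07. C2 (−1.04 ± 0.06), C4b (−1.06 ± 0.05), factor B gene Cfb (−1.20 ± 0.08) and the surface inhibitor Cd55 (−1.76 ± 0.06) fell too. In all 8 of 19 tested complement genes rose and 10 fell, with a median of −0.28.

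Genes of macrophages that handle lipid rose less evenly. Of 22 tested genes of the lipid-associated list, 17 rose and 3 fell, with a median of 1.00. Trem2, a lipid-sensing receptor, gave 7108 and 6497 on chow and 64034 and 65868 on high-fat diet (3.26 ± 0.06). Spp1, which encodes osteopontin, gave 26517 and 25597 against 177561 and 178859 (2.77 ± 0.05), and the elastase Mmp12 gave 5835 and 5168 against 38025 and 40297 (2.83 ± 0.08). Both high-fat arrays lay several-fold above both chow arrays for these genes. Smaller rises were seen in Lipa, the lysosomal acid lipase (1.68 ± 0.06), in Gpnmb (1.43 ± 0.07), in the fatty acid transporter Cd36 (1.43 ± 0.08) and in Plin2, which coats lipid droplets in many cell types (1.04 ± 0.07). The 3 that fell, Fabp4 (−2.18 ± 0.06), Apoe (−1.01 ± 0.06) and Lpl (−0.43 ± 0.06), are made by adipocytes as well.

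Markers of resident and alternatively activated macrophages gave 14 rises and 3 falls among 18 tested genes, with a median of 2.08, or 1.84 with the genes below background on a diet at their bounds. Mrc1, the mannose receptor, gave 1284 and 1228 on chow and 13691 and 14519.9 on high-fat diet (3.49 ± 0.06), and Folr2 gave 2299 and 2656 against 28115 and 26907 (3.48 ± 0.10). Pf4 changed by 3.92 ± 0.05 and the cytokine gene Il10 was at least 3.47-fold higher. Retnla, a product of interleukin-4 stimulated macrophages, was at least 7.86-fold higher. Lyve1, which marks perivascular macrophages and lymphatic vessels, fell (−1.82 ± 0.10). The summed scaled intensity of the list went the other way, with 458814 and 444077 on chow and 355375 and 375798 on high-fat diet. The brightest probes weigh most in such a sum, so it does not show that the list as a whole fell. With only the probes well above background on all 8 arrays, 8 of this list's genes rose.

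The list of Cx3cr1 and other genes best known from microglia gave 9 rises and no fall among 15 tested genes. Fcrls gave 57.6 and 75.6 on chow and 1778 and 1689.8 on high-fat diet (4.72 ± 0.14), and P2ry6 changed by 3.03 ± 0.06. P2ry12 was at least 5.65-fold, P2ry13 at least 3.16-fold and Gpr34 at least 2.15-fold higher, since their chow signals were not well above background. Tmem119 (11265 and 13091 on chow, 14061 and 13699 on high-fat diet) and Siglech had no call. The median was 3.03, or 1.66 at the bounds, and with only the probes well above background on all 8 arrays 5 of the genes rose.

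**Figure D2:**
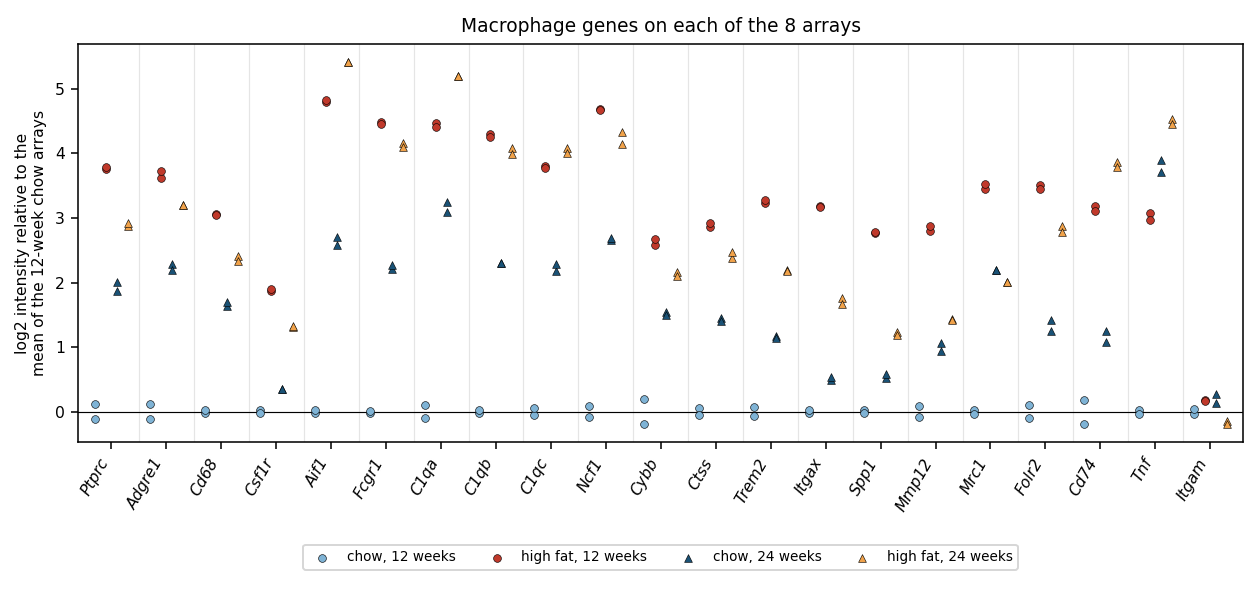
Log2 level of 21 macrophage and immune genes (horizontal axis) on each of the 8 arrays, relative to the mean of the 2 chow arrays at 12 weeks (vertical axis), with 1 point per array and 1 colour per group. Both high-fat arrays at 12 weeks lie above both chow arrays for each gene, by a narrow margin for Itgam, and the 24-week chow arrays lie between them for most genes.

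Promoter windows of 4 of the risen genes are shown because they hold the letters GAGGAAGT, a core that PU.1 can bind, in capitals. The windows come from RefSeq on build GRCm38.p6 and each run is 100 bases, 5′ to 3′ on the gene's strand. C1qc is from chr4:136893065-136893164 (minus strand), Pirb from chr7:3720453-3720552 (minus strand), Mmp12 from chr9:7344257-7344356 (plus strand) and Spp1 from chr5:104434951-104435050 (plus strand).
C1qc: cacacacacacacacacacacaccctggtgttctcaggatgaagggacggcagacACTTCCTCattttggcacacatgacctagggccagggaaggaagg
Pirb: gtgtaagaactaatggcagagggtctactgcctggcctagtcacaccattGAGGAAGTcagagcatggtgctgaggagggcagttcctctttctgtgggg
Mmp12: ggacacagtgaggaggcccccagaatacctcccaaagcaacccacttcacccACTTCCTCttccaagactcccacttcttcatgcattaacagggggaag
Spp1: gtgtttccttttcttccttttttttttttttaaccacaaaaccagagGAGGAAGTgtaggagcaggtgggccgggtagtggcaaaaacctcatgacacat

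The letters were searched on both strands in windows from 250 bases before to 50 after each gene's start, and 13209 tested genes had a window. GAGGAAGT stood in 3.28% of all 27025 windows and in 3.02% of those of tested genes. Among genes called at least 2-fold higher it stood in 65 of 663 windows (9.80%), and among those at least 2-fold lower in 9 of 470 (1.91%). By list it stood in 4 of 14 windows of the Fc receptor list, in 3 of 16 of the lipid-associated list and in 1 of 17 of the pan-macrophage list. A match is a description of the letters only.

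Lysosomal genes were split between those that rose and those without a call. Of 25 tested, 12 rose and 2 fell, with a median of 0.17. Ctss, the cysteine protease that trims the class II invariant chain, gave 36286 and 33907 on chow and 254569 and 265800.4 on high-fat diet (2.89 ± 0.07). Ctsc, which activates granule proteases, changed by 2.53 ± 0.06, and Gusb by 1.15 ± 0.06. Ctsd and Ctsl rose by 0.96 (SE 0.08) and 0.72 (SE 0.07) on the log2 scale. Lamp1, Hexa and Tpp1 had no call, and Ctsk, a collagen-degrading protease that fibroblasts also make, fell (−0.78 ± 0.07). Without C12 replicate 1, HF12 replicate 1 or HF12 replicate 2, 1 lysosomal gene fell instead of 2.

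Class II and class I antigen presentation went different ways. Of 13 tested class II genes 11 rose and none fell in limma, and the median was 1.26. H2-Aa changed by 2.78 ± 0.17, and the invariant chain Cd74 gave 102 and 132 on chow and 1057 and 1001 on high-fat diet (3.15 ± 0.13). H2-Eb1 (1.26 ± 0.06), the peptide loader H2-DMa (1.25 ± 0.10), the class II transactivator Ciita (0.96 ± 0.15) and the costimulator Cd86 (2.60 ± 0.13) rose as well. Of 17 class I genes, none rose and 6 fell, with a median of −0.12. H2-K1 gave 170445 and 173055 on chow and 106891 and 107846 on high-fat diet (−0.68 ± 0.07), B2m changed by −0.42 ± 0.06 and the peptide transporter Tap1 by −0.50 ± 0.07. Another Tap1 probe gave −0.22 ± 0.12 without a call. Leaving out HF12 replicate 1, HF12 replicate 2, HF24 replicate 1 or HF24 replicate 2 left 3 class I genes lower.

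Pattern-recognition genes rose in part. Of 22 tested genes of the Toll-like receptor and inflammasome list, 10 rose and 1 fell, and none fell without C12 replicate 2 or HF12 replicate 2. Tlr13, an endosomal receptor for bacterial RNA, gave 1765 and 1609 on chow and 14272 and 15475 on high-fat diet (3.14 ± 0.08), Tlr1 changed by 2.73 ± 0.11, Tlr7 by 1.54 ± 0.09 and the protease gene Casp1 by 1.55 ± 0.07. Tlr4, the endotoxin receptor, gave 1737 and 1514 on chow and 1621 and 1690 on high-fat diet, overlapping values without a call.

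Cytokine genes did not share a direction. Tnf gave 49.8 and 47.9 on chow and 412 and 383 on high-fat diet (3.03 ± 0.08), Osm gave 35.6 and 34.1 against 297 and 301 (3.10 ± 0.06), and Il1rn, which blocks interleukin-1, changed by 2.11 ± 0.09. Il33, an alarmin of stromal cells, gave 6688 and 5624 on chow and 2095 and 2176 on high-fat diet (−1.52 ± 0.10), and its receptor Il1rl1 changed by −0.74 ± 0.06. Il1b was not well above background on any of the 4 arrays, and Nos2 gave 466 and 466 on chow and 464 and 486 on high-fat diet, with no call. Of 21 tested genes 7 rose and 8 fell, with a median of −0.09. Without HF12 replicate 1 the counts were 4 and 5.

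Chemokine genes also went both ways. Of 28 tested, 13 rose and 10 fell. Ccl12 gave 117 and 120.4 on chow and 1502 and 1499 on high-fat diet (3.66 ± 0.05), Ccl4 gave 553 and 619 against 4475 and 4634 (2.96 ± 0.08), and Ccl3 and Ccl6 changed by 2.45 ± 0.07 and 2.74 ± 0.09, all of them CC chemokines that macrophages make. Ccl2, the monocyte attractant, gave 96982 and 90914 on chow and 88034 and 87955 on high-fat diet and had no call. Cxcl13, a B-cell attractant, gave 563 and 517 on chow and 90.7 and 90.3 on high-fat diet (−2.58 ± 0.17). Cxcl12, a stromal niche factor (−0.74 ± 0.12), Cxcl1 (−0.69 ± 0.09) and Ccl19 (−1.18 ± 0.10) fell as well. Another Cxcl12 probe fell by less (−0.21 ± 0.05).

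Interferon-responsive genes were lower on the high-fat diet. Of 31 tested genes of the type I interferon response, 19 fell and 4 rose, with a median of −0.39, and without C12 replicate 1 or without HF12 replicate 1, 2 rose. Irf7, the regulator that amplifies interferon production, gave 23328 and 24065 on chow and 10165 and 10841 on high-fat diet (−1.17 ± 0.07). The antiviral genes Ifit1 (−1.24 ± 0.09), Ifit3 (−1.09 ± 0.08), Ifi44 (−1.51 ± 0.07), Usp18 (−1.20 ± 0.06) and the ubiquitin-like Isg15 (−0.96 ± 0.06) fell. Oas3 and Cmpk2 were the exceptions among the genes named here, with rises of 1.64 (SE 0.16) and 0.43 (SE 0.06) on the log2 scale.

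Targets of interferon gamma fell as well. Of 19 tested genes 15 fell and 1, Ciita, rose, with a median of −0.82. Iigp1, a GTPase that attacks the vacuoles of intracellular parasites, gave 14453 and 13200.2 on chow and 2707 and 2805 on high-fat diet (−2.33 ± 0.07). The chemokine Cxcl9 gave 836 and 846 against 188 and 183 (−2.18 ± 0.05), and Ubd gave 568 and 497 against 81.6 and 81.6 (−2.70 ± 0.09). Both high-fat arrays lay more than 4-fold below both chow arrays for these genes. Cxcl10 changed by −1.41 ± 0.12, Gbp3 by −1.48 ± 0.08, Gbp2 by −0.72 ± 0.07, Igtp by −0.74 ± 0.08 and Irgm1 by −0.37 ± 0.06. Ifng, the cytokine itself, was not well above background on any 12-week array.

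Promoter stretches of 5 of these genes are shown for the letters GAAA, any 2 bases and GAAA again, the core of the element that interferon-activated factors bind, in capitals. They come from the same RefSeq windows on GRCm38.p6. Where matches overlap only the first is in capitals, so in Irgm1 and Gbp3 a further overlapping match runs on in small letters. Igtp is from chr11:58199456-58199555 (plus strand), Irgm1 from chr11:48871421-48871520 (minus strand), Gbp2 from chr3:142620563-142620662 (plus strand), Gbp3 from chr3:142559944-142560043 (plus strand) and Cxcl10 from chr5:92349040-92349139 (minus strand).
Igtp: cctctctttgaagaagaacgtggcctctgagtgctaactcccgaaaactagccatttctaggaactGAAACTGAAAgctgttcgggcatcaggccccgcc
Irgm1: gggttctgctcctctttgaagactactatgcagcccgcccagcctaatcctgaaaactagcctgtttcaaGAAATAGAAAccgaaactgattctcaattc
Gbp2: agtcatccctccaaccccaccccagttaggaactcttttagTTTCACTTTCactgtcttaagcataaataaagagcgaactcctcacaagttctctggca
Gbp3: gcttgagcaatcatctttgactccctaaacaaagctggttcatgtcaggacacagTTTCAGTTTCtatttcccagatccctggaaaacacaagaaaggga
Cxcl10: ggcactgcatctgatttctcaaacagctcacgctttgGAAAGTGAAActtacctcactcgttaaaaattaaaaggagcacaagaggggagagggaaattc

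Searched on both strands in the same windows, this pair of GAAA blocks stood in 3.49% of all windows and in 3.17% of those of tested genes. It stood in 9 of 14 windows of the interferon gamma list and in 12 of 22 of the type I list. Among all genes called at least 2-fold lower it stood in 4.89% of windows, and among those at least 2-fold higher in 4.68%.

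Genes of the mature adipocyte were lower on the high-fat diet. The 11 tested major urinary protein genes stood furthest apart: all 11 fell, with a median of −5.27, and −5.25 at the bounds. These genes encode lipocalins that liver makes and that are excreted in urine, and fat also makes them. Mup1 gave 20547 and 21165 on chow and 515 and 541 on high-fat diet, Mup19 gave 28360.3 and 28321 against 665 and 713, and Mup21 gave 19666 and 20102 against 514 and 532. On both high-fat arrays the signal was a small part of that on either chow array. The changes were −5.30 ± 0.08, −5.36 ± 0.15 and −5.25 ± 0.08, that is 39.5-fold, 41.1-fold and 38.0-fold lower (adjusted p = 1.69e-06 for Mup1 in limma). The genes form a family of close copies, so probes may catch each other's transcripts, which was not measured, and the 11 genes are uncertain as separate measurements. For 10 further Mup names there was no tested feature. With only the probes well above background on all 8 arrays, 1 of the 11 genes remained to be tested and called lower. Mup2 lost its call when any of the 4 arrays at 12 weeks was left out.

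The 100 bases before the start of 4 Mup genes are shown to let their likeness be seen, with the letters TATATAA in capitals. They come from RefSeq on GRCm38.p6, all on the minus strand: Mup17 from chr4:61595833-61595932, Mup18 from chr4:61674095-61674194, Mup19 from chr4:61782225-61782324 and Mup21 from chr4:62150842-62150941.
Mup17: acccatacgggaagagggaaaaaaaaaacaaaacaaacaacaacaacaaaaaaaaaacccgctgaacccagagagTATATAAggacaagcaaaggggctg
Mup18: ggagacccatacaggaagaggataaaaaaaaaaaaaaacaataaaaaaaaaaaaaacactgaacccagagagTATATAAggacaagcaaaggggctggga
Mup19: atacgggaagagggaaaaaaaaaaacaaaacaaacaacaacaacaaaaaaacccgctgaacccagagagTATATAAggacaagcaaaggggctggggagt
Mup21: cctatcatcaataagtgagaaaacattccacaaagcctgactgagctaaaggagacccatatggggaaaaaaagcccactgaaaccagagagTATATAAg

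Over 250 bases before the start, pairs of the 8 Mup genes with a window were 55.0% (Mup2 and Mup21) to 95.3% (Mup2 and Mup17) identical. Mup21 was 58.0%, 59.3% and 55.8% identical to Mup17, Mup18 and Mup19. TATATAA stood on either strand in 8 of 8 Mup windows, in 3.46% of all windows, in 1.95% of those of tested genes and in 21 of 470 (4.47%) of genes called at least 2-fold lower.

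Most adipokine genes fell. Of 18 tested genes 11 fell, 2 rose and 5 had no call, with a median of −1.23. Adipoq, which encodes adiponectin, gave 97082 and 105285 on chow and 10105 and 9992 on high-fat diet (−3.33 ± 0.07). Cfd, the complement factor also called adipsin, gave 317683 and 328472 against 39447 and 40046 (−3.02 ± 0.20), and Retn, resistin, gave 15225 and 15578 against 780.1 and 787 (−4.30 ± 0.10). The chow arrays were 10.1-fold, 8.13-fold and 19.6-fold higher in the mean, with no overlap. Rbp4, a retinol carrier, changed by −2.27 ± 0.06, angiotensinogen, Agt, by −1.84 ± 0.05 and chemerin, Rarres2, by −1.53 ± 0.05. Lep gave 290.2 and 333 on chow and 384 and 365 on high-fat diet, low values without a call. Metrnl and Sfrp5 were the 2 that rose (0.71 ± 0.05 and 0.71 ± 0.09).

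Lipid droplet genes of adipocytes fell while the droplet protein of other cells rose. Plin1, the adipocyte perilipin, gave 19388 and 20045 on chow and 2002 and 2052 on high-fat diet (−3.28 ± 0.09), and Cidec, which fuses droplets into large ones, gave 7620 and 7585 against 559 and 540.2 (−3.79 ± 0.06). The lipases Pnpla2 (−2.44 ± 0.09) and Lipe (−2.53 ± 0.16) and the lipase inhibitor G0s2 (−2.47 ± 0.05) fell together. Of 20 tested genes 13 fell and 3 rose, among them Plin2, given above, and Hilpda (0.48 ± 0.06).

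Transcription factors of fat cells fell too. Pparg gave 25923 and 26691 on chow and 10019 and 10185 on high-fat diet (−1.38 ± 0.05), and Cebpa gave 9071 and 10256 against 6085 and 5876 (−0.69 ± 0.11). The groups did not overlap for either. Klf15 (−1.51 ± 0.09), Ppara (−1.71 ± 0.09), the lipogenic regulator Srebf1 (−0.80 ± 0.06) and Zbtb16 (−2.68 ± 0.07) fell, as did Dlk1, a marker of preadipocytes (−0.74 ± 0.09). Cebpb, which acts early in differentiation, gave 24572 and 23745 on chow and 23041 and 23493 on high-fat diet and had no call. Of 30 tested regulators 21 fell and 1 rose, with a median of −0.42, and 12 fell without HF12 replicate 1 or without HF12 replicate 2. The rise was not called without C12 replicate 1, C12 replicate 2 or HF12 replicate 2.

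Genes that make fatty acids and join them into triglyceride fell with a median of −1.37, 19 of 25 tested lower and 1 higher. Thrsp, a lipogenic nuclear protein, gave 4335 and 4389.5 on chow and 223 and 233 on high-fat diet (−4.26 ± 0.22). Fasn, fatty acid synthase, gave 133987 and 126009 against 47240.1 and 49886 (−1.42 ± 0.07), and Acaca and Scd1 changed by −1.39 ± 0.05 and −1.52 ± 0.07. Enzymes that build triglyceride fell as well: Gpam by 2.32 (SE 0.07), Agpat2 by 2.05 (SE 0.05), Acsl1 by 2.54 (SE 0.09) and Gpd1 by 3.08 (SE 0.10) on the log2 scale. Pck1, which makes glycerol for triglyceride in fat, was at least 3.33-fold lower. Lpin2 was the gene that rose (0.55 ± 0.07).

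Uptake and insulin response genes were lower in part. Of 19 tested genes of fatty acid uptake and glycerol handling 11 fell and 2, Cd36 and Fabp5 (0.82 ± 0.05), rose. Ffar4, a receptor for long-chain fatty acids, gave 439 and 433 on chow and 61.5 and 46.4 on high-fat diet (−3.03 ± 0.24). Of 25 tested insulin signalling genes 13 fell and 4 rose. Slc2a4, which encodes the insulin-driven glucose transporter GLUT4, gave 3976 and 3876 on chow and 757 and 741 on high-fat diet (−2.39 ± 0.06). The insulin receptor gene Insr (−0.84 ± 0.14), its substrates Irs1 (−1.14 ± 0.05) and Irs2 (−1.10 ± 0.09) and Pde3b (−1.41 ± 0.06) fell. Ptpn1, a phosphatase that switches the receptor off, rose (0.78 ± 0.06), as did Trib3 (0.80 ± 0.11).

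Thermogenic genes fell in 14 of 22 tested, with 5 rises and a median of −0.87. Adrb3, the adipocyte receptor for noradrenaline, gave 44006 and 39783 on chow and 2801 and 3239 on high-fat diet (−3.80 ± 0.15). The coactivator Ppargc1a (−2.26 ± 0.21), the beige regulator Prdm16 (−1.06 ± 0.08), Cox8b (−1.46 ± 0.08) and Tbx1 (−2.24 ± 0.06) fell. Ucp2 gave 298 and 418 on chow and 2509 and 2220.5 on high-fat diet (2.74 ± 0.17), and its genomic neighbour Ucp3 gave nearly the same values, 314 and 382 against 2504 and 2257, so their transcripts may not be told apart by these probes. Ckb and Dio2 rose too (1.48 ± 0.10 and 0.95 ± 0.08). Ucp1 was not among the tested features.

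Mitochondrial genes fell by small amounts with few exceptions. Of 30 tested genes of beta-oxidation and respiration 24 fell and 1 rose, with a median of −0.48. Cpt2, a carnitine palmitoyltransferase inside mitochondria, gave 24161 and 22140.5 on chow and 11313 and 11936 on high-fat diet (−0.99 ± 0.10). Acadvl, Acadm and the citrate synthase gene Cs changed by −0.83 ± 0.08, −0.78 ± 0.06 and −0.53 ± 0.06. Cpt1a rose (0.63 ± 0.08). In cholesterol synthesis and uptake 18 of 28 tested genes fell and 2 rose, with a median of −0.31. Insig1 (−0.66 ± 0.07), Idi1 (−0.65 ± 0.07) and Hmgcs1 (−0.44 ± 0.06) fell, and the exporter Abcg1 (1.82 ± 0.06) and the esterifying enzyme Soat1 (0.86 ± 0.06) rose. Leaving out C12 replicate 1 left 10 falls in the cholesterol list, HF12 replicate 1 left 8 and HF12 replicate 2 left 9.

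**Figure D3:**
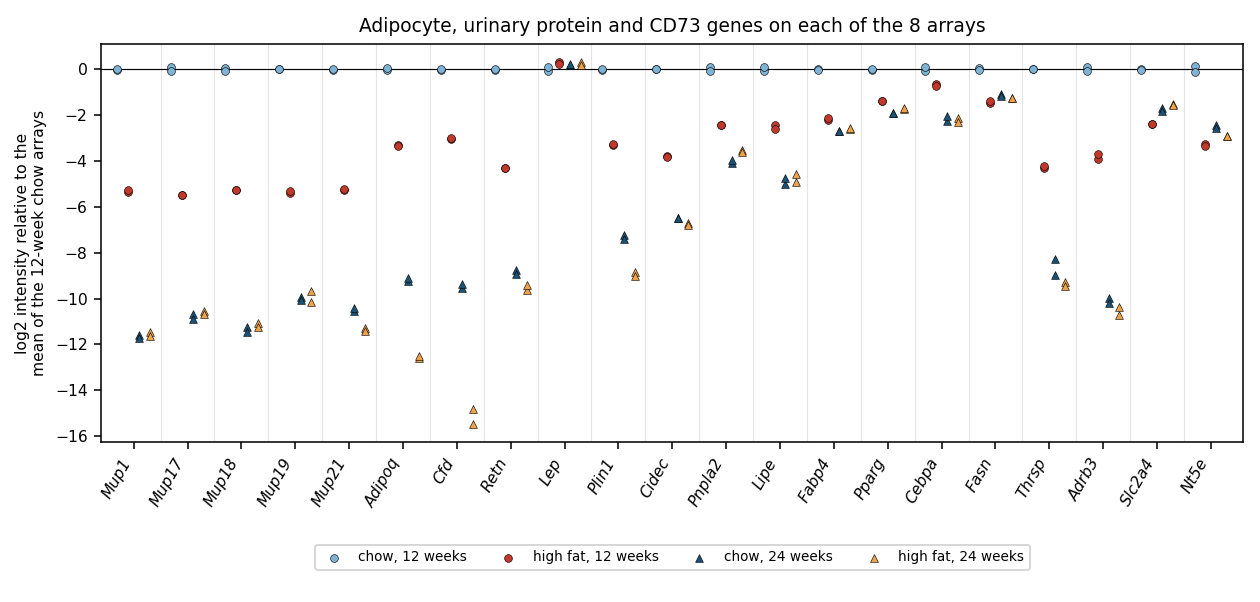
Log2 level of 21 genes, among them Mup, adipokine, lipid droplet and lipogenic genes, (horizontal axis) on each of the 8 arrays, relative to the mean of the 2 chow arrays at 12 weeks (vertical axis), with 1 point per array and 1 colour per group. The high-fat arrays at 12 weeks lie below the chow arrays for every gene other than Lep, and many 24-week values are near or below background, so their order there is not measured.

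Macrophage and adipocyte genes thus moved in opposite directions between the same 4 arrays. The pan-macrophage sum given above was several-fold higher on both high-fat arrays than on either chow array. That of the resident and alternatively activated list was lower, though 14 of its 18 tested genes rose. Whether the share of RNA from macrophages has a part in the lower levels of adipocyte genes was not tested.

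Surface markers of stromal and adipose progenitor cells went both ways, with 12 of 25 tested genes lower, 4 higher and a median of −0.19. Without C12 replicate 1 or without HF12 replicate 1, 2 were higher. Nt5e, which encodes CD73, gave 1087 and 917 on chow and 103 and 99.1 on high-fat diet (−3.31 ± 0.09). Dpp4 (−2.06 ± 0.05) and Pi16 (−1.65 ± 0.11), which mark early progenitors of the fat's connective tissue, Cd34 (−1.41 ± 0.11) and Pdgfra (−0.57 ± 0.06) fell. Alcam gave 3725 and 3534 on chow and 12879 and 13815 on high-fat diet (1.88 ± 0.09), and Cd200 changed by 2.04 ± 0.05. Eng, Cd44 and Itgb1 had no call.

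The main fibrillar collagens did not differ by call. Col1a1 gave 230517 and 220684 on chow and 216971 and 233237 on high-fat diet, overlapping values, and Col1a2 and Col3a1 had no call either. Of 28 tested collagen genes 8 fell and 3 rose, where 17.6% and 13.7% of all features did. The rises were in Col8a1 (0.69 ± 0.10), Col8a2 (0.84 ± 0.09) and Col11a1 (0.79 ± 0.09). The falls were small, and leaving out C12 replicate 1 or C12 replicate 2 left 5 of them, HF12 replicate 1 left 1 and HF12 replicate 2 left 2. Among 32 glycoproteins and proteoglycans 14 fell and 7 rose. Lum, a leucine-rich proteoglycan that spaces collagen fibrils, gave 29216 and 26709 on chow and 7088 and 7728 on high-fat diet (−1.92 ± 0.10), and Tnxb, Dcn and Sparcl1 changed by −1.85 ± 0.10, −0.79 ± 0.09 and −1.11 ± 0.10. Comp (1.41 ± 0.08), Tnc (0.73 ± 0.08) and Postn (0.57 ± 0.06) rose.

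Matrix proteases rose and fell with 8 and 11 of 32 tested genes (13.7% and 17.6% of all features did). Mmp9, a gelatinase of leukocytes, changed by 2.11 ± 0.20, and the leukocyte protease Adam8 changed by 3.15 ± 0.12. The stromelysin Mmp3 (−1.17 ± 0.06), Adamts1 (−0.99 ± 0.07) and the protease inhibitor Serpine2 (−0.95 ± 0.06) fell. Without HF12 replicate 2 the counts were 5 and 7. The smooth muscle and myofibroblast list had 8 rises among 18 tested genes. They were small in the contractile genes Cnn1 (0.76 ± 0.05) and Tagln (0.41 ± 0.05). Tgfbi, which is not a contractile gene, rose more (2.16 ± 0.06), while Mylk fell (−0.37 ± 0.05). Without HF12 replicate 2, 5 rose.

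In the TGF-beta and BMP list 15 of 36 tested genes fell and 9 rose (17.6% and 13.7% of all features did). Bmp7, a ligand that can drive brown fat formation, gave 1529 and 1418 on chow and 175 and 163 on high-fat diet (−3.13 ± 0.17), and the ligand Bmp4 (−0.89 ± 0.07), the antagonist Chrdl1 (−1.97 ± 0.09) and the binding protein Ltbp1 (−1.86 ± 0.09) fell. Inhba (0.85 ± 0.07), the antagonist Grem1 (0.83 ± 0.05) and Ltbp2 (1.06 ± 0.07) rose. Without HF12 replicate 1, 5 rose, and without HF12 replicate 2, 9 fell.

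In the Wnt list 17 of 35 tested genes fell and 2 rose (17.6% and 13.7% of all features did), with a median of −0.27. Rspo1 (−0.91 ± 0.14), which enhances Wnt signals, the receptor Fzd4 (−0.81 ± 0.06), the ligand Wnt4 (−0.72 ± 0.12) and the target genes Axin2 (−0.90 ± 0.15) and Nkd2 (−0.77 ± 0.06) fell. Without C12 replicate 1, 11 fell, and without HF12 replicate 1, 10, and 1 rose without C12 replicate 1, HF12 replicate 2 or any 24-week array. Among 37 genes of the insulin-like growth factor axis and other secreted factors 14 fell and 7 rose. Igfbp5, a binding protein, gave 12221 and 13842 on chow and 3968 and 3902 on high-fat diet (−1.72 ± 0.07), Angpt1 changed by −1.70 ± 0.10 and Nrg1 by 1.00 ± 0.09. Without C12 replicate 1, HF12 replicate 1 or HF12 replicate 2 the falls were 9, 8 and 9, and the rises were 4 without C12 replicate 1, C12 replicate 2 or HF12 replicate 1 and 1 without HF12 replicate 2. Of 24 tested genes of bone, cartilage and tendon 9 rose and 6 fell. Spp1, given above, Tnfsf11, the osteoclast-inducing ligand (1.30 ± 0.16), and the tendon gene Tnmd (1.25 ± 0.13) rose, and the tendon factor Scx (−0.75 ± 0.08) and the cartilage factor Sox6 (−0.87 ± 0.13) fell.

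Genes that record a cell's place along the body were lower for a part of each list. Of 32 tested Hox genes 16 fell and 1 rose, and without HF12 replicate 1 or HF12 replicate 2, 10 fell. Hoxa7 gave 3669.7 and 3264 on chow and 1708 and 1739 on high-fat diet (−1.01 ± 0.09), and Hoxb6, Hoxb7 and Hoxd4 changed by −0.80 ± 0.07, −0.66 ± 0.08 and −0.58 ± 0.09. Hoxc10, a gene of posterior segments, gave 9.51 and 7.09 on chow, which was not well above background, and 39.5 and 30.2 on high-fat diet, and was at least 1.82-fold higher. Of 29 other positional regulators 17 fell and 2 rose, and without HF12 replicate 1, 11 fell. Tbx5 (−0.97 ± 0.11), Tbx3 (−0.76 ± 0.07), Irx2 (−0.82 ± 0.06) and Foxf2 (−0.89 ± 0.12) fell, and the hindlimb factor Pitx1 gave 27.8 and 22.9 on chow and 117 and 112 on high-fat diet (2.18 ± 0.11). Of 19 imprinted growth regulators 11 fell and 3 rose, with Peg3 (−1.13 ± 0.16), Mest (−1.01 ± 0.07) and Ndn (−0.72 ± 0.06) lower, Cdkn1c (0.82 ± 0.06) and Meg3 (0.48 ± 0.07) higher, and Igf2 and H19 without a call.

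Mitotic genes differed by small amounts at 12 weeks, while more genes of the G1/S step rose. Of 28 tested mitotic genes 7 rose and 2 fell (13.7% and 17.6% of all features did). The largest rise was that of Mki67, with 10870 and 11397 on chow and 14305 and 14501 on high-fat diet (0.37 ± 0.06). The kinases Cdk1 and Plk1 had no call. Without C12 replicate 1, HF12 replicate 1 or HF12 replicate 2, 2 mitotic genes rose and none fell, without C12 replicate 2, 1 fell, and without HF24 replicate 1 or HF24 replicate 2, 4 rose. Of 28 genes of the G1/S step and DNA replication 12 rose and 1 fell. Ccnd1, the cyclin that starts the cycle, gave 3290 and 3510.2 on chow and 8828 and 8307 on high-fat diet (1.33 ± 0.06), and E2f2, Pcna and Tk1 changed by 1.31 ± 0.06, 0.78 ± 0.06 and 0.51 ± 0.05. Without C12 replicate 2 the G1/S list had 6 rises and 2 falls, and without HF12 replicate 1 or HF12 replicate 2 it had 5.

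Of 30 tested senescence and p53 target genes 6 rose and 4 fell, shares near the 13.7% and 17.6% of all features, so the counts are no result about this list. Sesn1, a p53 target, gave 2607 and 2759 on chow and 5449 and 5521 on high-fat diet (1.03 ± 0.06), and the inhibitor Cdkn2b changed by 0.46 ± 0.06. Trp53 had no call. Without HF12 replicate 1, 3 rose and 1 fell, without HF12 replicate 2, 1 fell, and without C12 replicate 1 or C12 replicate 2, 2 fell.

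Stress and glycolysis genes rose in part, where 13.7% of all features rose and 17.6% fell. Of 29 tested genes of the hypoxia response and glycolysis 14 rose and 5 fell, and without HF12 replicate 1 or HF12 replicate 2, 9 rose. Car9, a carbonic anhydrase, gave 60.1 and 51.0 on chow and 396 and 405 on high-fat diet (2.85 ± 0.09). Aldoc (2.53 ± 0.09), the lactate exporter Slc16a3 (1.06 ± 0.05) and Pkm (0.70 ± 0.08) rose, while Pfkfb3 (−1.03 ± 0.06), Bnip3 (−0.88 ± 0.08) and Vegfa (−0.43 ± 0.07) fell, and Hif1a, which encodes the oxygen-regulated factor, had no call. Atf3, a stress-induced transcription factor, gave 1547 and 1552 on chow and 9188 and 9016 on high-fat diet (2.55 ± 0.05), the largest change among the 24 tested genes of the unfolded protein and ATF4 response, of which 6 rose and 3 fell. The 3 falls became 1 without C12 replicate 1 and 0 without HF12 replicate 1 or HF12 replicate 2, and the chaperone gene Hspa5 had no call in the fit with all arrays. Fos changed by 1.31 ± 0.08 and Zfp36 by 0.78 ± 0.10, within an immediate early list of 7 rises and 2 falls among 22 tested, where 4 rises were left without C12 replicate 2, HF12 replicate 1 or HF12 replicate 2 and 1 fall without C12 replicate 1, HF12 replicate 1 or HF12 replicate 2.

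Of 30 tested antioxidant genes 13 fell and 4 rose (17.6% and 13.7% of all features did), and their median of −0.03 was that of all features. The microsomal glutathione transferase Mgst1 gave 111474 and 109149 on chow and 40426 and 43503 on high-fat diet (−1.40 ± 0.06). The superoxide dismutases Sod2 (−1.04 ± 0.07) and Sod1 (−0.63 ± 0.08) and catalase, Cat (−0.77 ± 0.08), fell, and Gpx1 rose (1.05 ± 0.08). Leaving out any of the 4 arrays at 12 weeks left 2 rises. Mt1, Mt2 and Nfe2l2 had no call.

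Markers of other cell types that a digest of subcutaneous fat can hold were read on the same arrays. For comparison, 13.7% of all features rose and 17.6% fell. Endothelial markers fell in 9 of 15 tested and rose in 1, Vwf (0.96 ± 0.07), with Flt1 (−0.87 ± 0.10), Tek (−0.92 ± 0.10) and Erg (−0.50 ± 0.08) among the falls. Without C12 replicate 1 or HF12 replicate 2, 4 fell, and without HF12 replicate 1, 3. Skeletal muscle genes gave strong signals on both diets: Myog, the regulator of muscle fusion, gave 8913 and 9220.2 on chow and 9274 and 8854 on high-fat diet without a call, and the troponin Tnnc2 gave 83896 and 87999.8 against 53797 and 59222 (−0.61 ± 0.07). In all 6 of 15 tested muscle markers fell and 1 rose, which lost its call without C12 replicate 1, HF12 replicate 1 or HF12 replicate 2. Schwann and glial markers rose in 8 of 11 tested, among them Mbp (1.79 ± 0.10), and S100b fell (−0.60 ± 0.09). Of those 8 rises 4 were left without C12 replicate 2, HF12 replicate 1 or HF12 replicate 2. Pericyte markers rose in 2 of 10 tested, among them Ndufa4l2 (1.24 ± 0.06), and fell in 4, among them Abcc9 (−1.04 ± 0.06) and Kcnj8 (−0.87 ± 0.09), with 1 rise left without C12 replicate 1, C12 replicate 2 or HF12 replicate 1. Of 4 tested mesothelial markers 2 rose, and without HF12 replicate 1, 1.

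Of the lymphocyte markers 2 of 16 tested rose and 1 fell, no more than the 13.7% and 17.6% of all features. Il7r gave 1349.6 and 1200.2 on chow and 11077 and 11306 on high-fat diet (3.14 ± 0.07) while Cd3e and Cd4 had no call. Without C24 replicate 1 or C24 replicate 2, 4 rose, and without C12 replicate 2, 2 fell. Mast cell markers fell in 5 of 9 tested, among them Kit (−0.73 ± 0.08) and Hdc (−1.07 ± 0.11), and 3 fell without C12 replicate 1, C12 replicate 2, HF12 replicate 1, HF24 replicate 1 or HF24 replicate 2. Of the neutrophil markers 4 of 9 rose and 2 fell, Camp (−0.95 ± 0.09) and Lcn2 (−1.04 ± 0.11), and S100a9 was not well above background on any 12-week array. The rises were 2 without C12 replicate 2 or HF12 replicate 2. Dendritic cell markers rose in 4 of 8 tested, with Cd83 (2.54 ± 0.10) and Batf3 (1.83 ± 0.07). Keratinocyte markers rose in 3 of 11 and fell in 1, and Krt5 gave 46.8 and 49.4 on chow and 64.4 and 49.7 on high-fat diet without a call. None of 4 tested erythroid markers was called in limma. Hepatocyte markers fell in 4 of 8 tested, with Hp (−1.57 ± 0.06), Trf (−1.41 ± 0.06) and Cyp2e1, given above, and fat makes these 3 as well. With only the probes well above background on all 8 arrays, 2 fell. The part of these cell types in the other results was not tested.

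**Figure D4:**
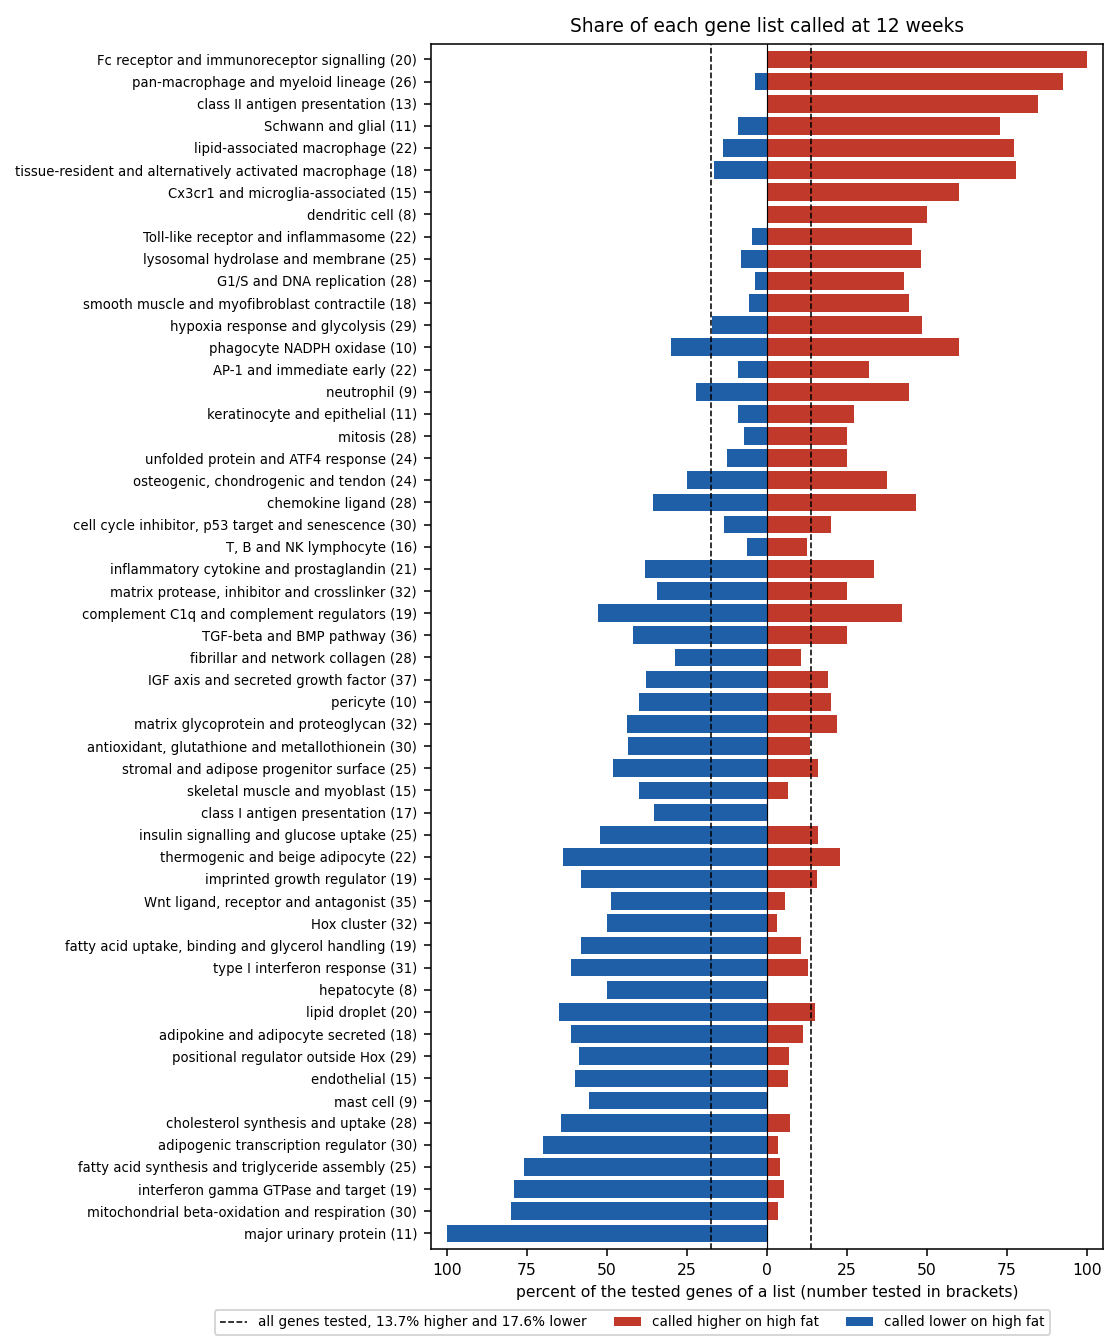
Share of tested genes called higher (bars to the right) and lower (bars to the left) on the high-fat diet at 12 weeks, in percent, for each gene list with at least 8 tested genes. Dashed lines mark the shares over all features, 13.7% higher and 17.6% lower, and the Fc receptor list (20 of 20 higher) and the Mup list (11 of 11 lower) stand at the ends.

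The diet effect at 12 weeks differed from that at 24 weeks for many genes. The 2 diet comparisons share no array, and the difference of the changes was called in limma for 8780 features (29.7%), 5010 (16.9%) more positive and 3770 (12.7%) more negative at 12 weeks. Of the 4065 features that rose at 12 weeks, 1324 also rose at 24 weeks, 478 fell and 2263 had no call. Of the 5198 that fell at 12 weeks, 1909 fell again, 643 rose and 2646 had no call. The background at 24 weeks was 3821 higher (12.9%) and 5984 lower (20.2%).

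Macrophage genes rose at both times but more at 12 weeks. At 24 weeks 20 of the 26 pan-macrophage genes rose and 2 fell, with a median of 0.89, and the difference of the changes was called for all 26 genes, 25 of them more positive at 12 weeks. Adgre1 gave 8118 and 7544 on the 24-week chow arrays and 15174 and 15151 on the 24-week high-fat arrays, a change of 0.95 ± 0.09, so the difference from 12 weeks was 2.72 ± 0.13. The 24-week chow arrays lay well above the 12-week chow arrays for this gene. The summed scaled intensity of the list was 239751 and 239702 on the 24-week chow arrays and 394939 and 391664 on the 24-week high-fat arrays, between the 12-week groups. Clec10a, a lectin of alternatively activated macrophages, turned: it gave 79.9 and 64.6 on chow and 507 and 539 on high-fat diet at 12 weeks, and 522 and 432 against 226 and 239 at 24 weeks, a difference of 3.89 ± 0.19.

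Interferon gamma targets turned as a group. At 24 weeks 15 of the 19 genes rose and none fell in limma, with a median of 0.94, and the difference was called for 16, all more negative at 12 weeks. Cxcl9, which fell at 12 weeks, gave 346 and 360.01 on chow and 2463 and 2492 on high-fat diet at 24 weeks (2.81 ± 0.05), a difference of −4.99 ± 0.07 (adjusted p = 3.15e-05). Ubd gave 38.1 and 43.3 against 324 and 333 there (3.02 ± 0.09). Ifng was well above background on the 24-week high-fat arrays alone, at 77.8 and 89.7. The type I interferon list did not turn: 24 of its 31 tested genes fell at 24 weeks and 2 rose.

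Genes of cell division also set the times apart. All 28 mitotic genes rose at 24 weeks, and 23 of 28 G1/S genes did. Mki67 gave 8704 and 9279.8 on chow and 16965 and 16730.1 on high-fat diet at 24 weeks (0.91 ± 0.06), and the difference from 12 weeks was −0.53 ± 0.08. Class I presentation genes, 6 of 17 lower at 12 weeks, rose in 14 of 17 at 24 weeks.

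Several adipocyte genes gave low signals on both diets at 24 weeks. Plin1 gave 132 and 115 on chow and 43.0 and 38.2 on high-fat diet at 24 weeks, far below the 12-week chow arrays. The probes of the Mup genes other than Mup2 were not well above background on both arrays of either 24-week group, so no change between the diets was measured there for them. Fasn gave 61139 and 57066 against 53942 and 55015 at 24 weeks with no call for the diet there, and the difference was −1.30 ± 0.09. Mitochondrial genes, 24 of 30 lower at 12 weeks, gave 2 falls and 1 rise at 24 weeks.

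**Figure D5:**
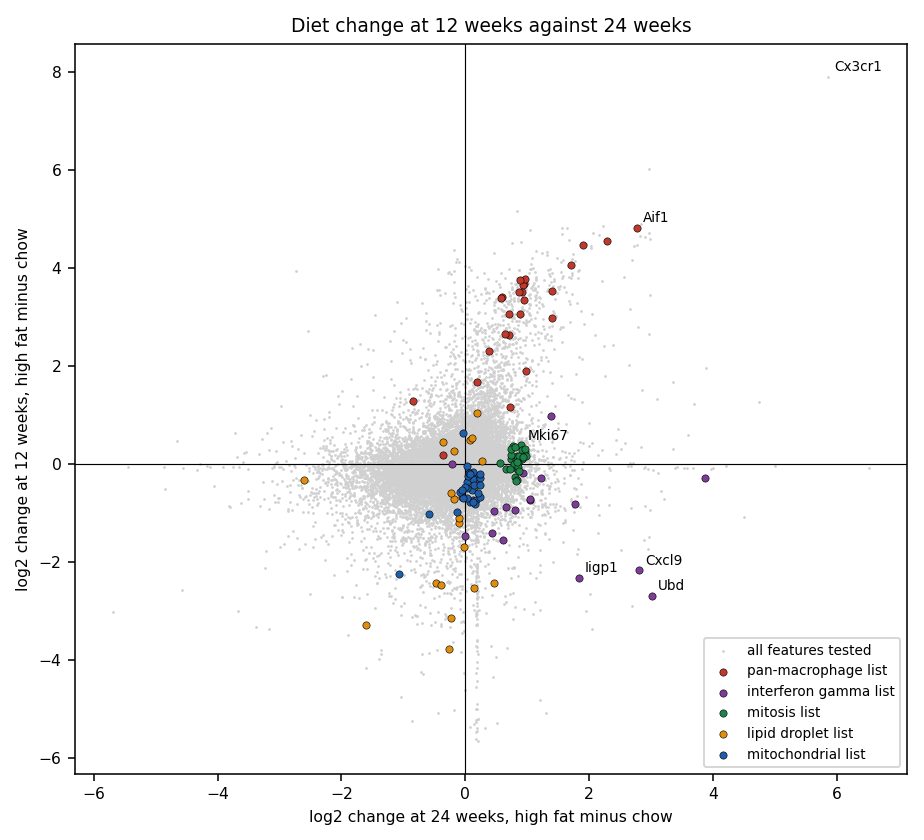
Log2 change on the high-fat diet at 12 weeks (vertical axis) against that at 24 weeks (horizontal axis), with 1 point per feature and 5 gene lists in colour. Pan-macrophage genes lie mostly above 0 at 12 weeks and mostly to the right of 0, interferon gamma targets mostly below 0 and to the right, mitotic genes near 0 at 12 weeks and to the right, and mitochondrial genes mostly below 0 and near 0 at 24 weeks.

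Of 12853 features without a symbol 3424 (26.6%) were called at 12 weeks, against 5839 (34.9%) of 16732 with one, and this difference was not tested. The value of a gene is that of its brightest kept probe. Of 6023 genes with more than 1 kept probe, 19 had probes called in opposite directions. Another probe of a gene can also give a smaller change or no call, as for Cxcl12 and Tap1. Of the called features, 283 that rose were not well above background on either chow array. A further 164 that fell were not well above background on either high-fat array, so the changes of both sets are known only as bounds. Among all 29585 features, called or not, 157 were not well above background on either diet.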

How the data were processed

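RNA of cultured mouse adipose cells was labelled with Cy3 and hybridised to Agilent 1-colour arrays, 2 per group in 4 groups. Spot signals were extracted with Agilent Feature Extraction 11.0.1.1, per the submitters' processing notes and the file headers, which name build mm9. The deposited scanner values are processed signal intensities on a linear scale, background-subtracted by that software, and the authors' deposited value table, used as an alternative, holds log2 values. Its columns have medians from −1.44 to −1.33 and rise in direct proportion to the log2 scanner values of the same array, without centring by gene, so it holds the same measurements on another offset. Control spots and 192 probes with an outlier flag were left out, spots of a probe were averaged, and the log2 intensity minus the array's 75th percentile was taken. Probes well above background on both arrays of at least 1 group were kept (37650 of 56413), and a gene's value was that of its kept probe with the highest mean. Symbols came from the reference gene table of GRCm38.p6, which gave 1 symbol for 58.3% of probes.

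All 8 arrays were fitted in limma 3.58.1 (R 4.3.3) with 1 mean per group, moderated variances (4 residual and 1.87 prior degrees of freedom) and two-sided tests, and p-values were adjusted by Benjamini-Hochberg over 29585 features. Every adjusted p in the text is from this limma fit. The difference between feeding times was its interaction contrast. Tested on simulated data for the 12-week comparison with 29585 genes, the fit called 22% of genes changed by 0.5, 80% by 1, 92% by 2 and 88% by 3 (log2). It also called 5 of 29385 unchanged genes. Only 50 genes were changed at each size, a far smaller share than the 31.3% of features called in the data. The cutoff on p that the adjustment sets depends on that share, so these rates do not carry over to this comparison. Python 3.11.15 with pandas 2.3.3, numpy 2.4.6 and matplotlib 3.10.9 made the summaries and figures.

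Named are the 20 highest and 20 lowest changes with a symbol, the 10 largest differences between feeding times each way, and members of 56 gene lists, some of which are counted in their list and not reported by name here. The members and lists were chosen with earlier results of these data known, so no list is independent evidence of its direction. Alternatives tried were normexp (offset 50) on the median signal with quantile normalization, quantile normalization alone, the authors' value table, other filters, every kept probe, limma-trend, the 12-week arrays alone, the replicate number as a block, and each array left out.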

Additional observations from a re-analysis of the deposited data

Results flagged for a closer look

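Called changes that ran in opposite directions at the 2 feeding times stood out by the test of their difference. There were 478 features higher on the high-fat diet at 12 weeks and lower at 24 weeks, and 643 lower at 12 weeks and higher at 24 weeks. The 5 largest such differences each way are given here, leaving out genes whose probe was not well above background on either array of some group (such as Clec1b, Retnla and Lncbate1, whose differences are not measured ones), with chow before high-fat values, with Kprp, Ms4a8a, Unc93a and AW112010 named after their values were seen.

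Upward at 12 weeks these differences in log2 change were 3.89 for Clec10a, 3.70 for Kprp, 3.52 for Ms4a8a, 3.37 for the chemokine Ccl6 and 3.28 for Perp, a p53 target of epithelia. Ms4a8a gave 85.9 and 77.1 on chow and 469.6 and 466 on high-fat diet at 12 weeks, and 757 and 836 against 411 and 385 at 24 weeks. Kprp gave 22.4 and 20.2 against 165 and 192 at 12 weeks, and 214 and 167 against 124 and 118 at 24 weeks. Its 12-week chow signal was dim, and its log2 change at 12 weeks ranged from 1.45 to 3.18 over the alternatives, so the size of its difference is uncertain. Perp gave 85.6 and 86.1 against 122 and 115 at 12 weeks, and 523 and 519 against 75.9 and 72.8 at 24 weeks, so its difference rests mostly on the 24-week chow arrays. Ccl6 gave 69466 and 81461 on chow and 49333 and 47415 on high-fat diet at 24 weeks.

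Downward at 12 weeks they were −5.72 for Ubd, −4.99 for Cxcl9, −4.16 for Iigp1, −3.47 for Unc93a and −3.47 for AW112010. Unc93a gave 943 and 895 on chow and 126 and 135 on high-fat diet at 12 weeks, and 241 and 215 against 350.2 and 366 at 24 weeks. AW112010 gave 5188 and 5133 against 1010.4 and 1044 at 12 weeks, and 1043 and 1055 against 2358 and 2257 at 24 weeks. Iigp1 gave 5537 and 5046 against 18787 and 18846 at 24 weeks. Groups of 2 arrays are too small for a search for single outlying arrays.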

How the results depend on the processing

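No call at 12 weeks was made in the opposite direction under any of the 18 alternatives. The total of 9263 calls was 10149 with normexp and quantile normalization, 9153 from the authors' value table and 7141 without a filter on dim probes. The counts at least 2-fold higher and lower, 1189 and 945, were 767 and 533 with normexp and quantile normalization together, and the lower count was 548 with only probes well above background on all 8 arrays. With 1 array left out the calls ranged from 5440 to 8810, those higher from 2557 to 3821, those lower from 2883 to 4989, those at least 2-fold higher from 1147 to 1217 and lower from 836 to 960. The differences between feeding times ranged from 6170 to 7670, more positive from 3697 to 4470 and more negative from 2446 to 3261. The lone array left in a group is then assumed to vary like the other groups. Replicate numbers showed little pairing of the arrays. The deviations of same-numbered chow and high-fat arrays at 12 weeks from their group means correlated at −0.08. The highest correlation between any groups was 0.17, for chow at 12 and 24 weeks. With the replicate block 8041 features were called at 12 weeks and 7611 differed between the times. Of 2016 list counts under these alternatives 1839 stayed within 1.5 times the count given. Without the filter on dim probes the list counts that moved over 1.5 times included class I genes (3 lower), collagens (5 lower), proteases (5 higher), mitotic genes (3 higher, 0 lower), G1/S genes (7 higher) and secreted growth factors (3 higher). With the 12-week arrays alone 2 mitotic genes rose. The causes were not tested. Of 327 genes checked one by one 292 were called, and 288 of these kept the call under every alternative that tested them. The exceptions were Mup2, Pdgfrb, Thy1 and Lncbate1. Some genes named here, among them C3, C2, Cs and Hp, were not in this check. Dim probes have low precision, and with 2 arrays per group small changes were often missed in simulation.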

Other observations

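A few genes differed between the feeding times on both diets, and here chow values stand before high-fat values. Hoxc10 gave 890.5 and 1086 on the 24-week chow arrays and 1016 and 955 on the 24-week high-fat arrays, and 9.51 and 7.09 against 39.5 and 30.2 at 12 weeks. Pitx1 gave 569 and 567 against 899.8 and 811 at 24 weeks, and 27.8 and 22.9 against 117 and 112 at 12 weeks. Hoxa10 gave 2299 and 2151 against 2249.5 and 2285 at 24 weeks, and 456 and 397 against 254 and 284 at 12 weeks. The keratin gene Krt5 gave 1595 and 1698 on the 24-week chow arrays and 148 and 135 on the 24-week high-fat arrays. The skeletal muscle gene Tnnc2 gave 27177 and 25898 on chow and 4839 and 4939 on high-fat diet at 24 weeks, both below its 12-week values. These genes were picked after their values were seen, and the differences between feeding times were not tested, and feeding time and slide row cannot be told apart. Over the Hox list as a whole the summed scaled intensity on chow was 67666 and 63910 at 12 weeks and 59136 and 54230 at 24 weeks.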
